A study of Mus musculus with 18 samples.

Results

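Emx1 and Emx2 are the 2 mouse relatives of the fly head gene empty spiracles, and both were found by gene identifier among the 38355 genes of the count files and passed the filter on low counts, which 16236 genes passed. Their rows were taken by name, without a threshold on any value, although earlier results of these data were known when the pair was chosen. RNA had been taken from dissected cortex of C57BL/6 embryos at E12.5, in 18 libraries: 5 of the Dmrt3;Dmrt5 double knockout (double KO), 4 of the Dmrt5 KO, 5 of the Dmrt3 KO and 4 of wild type (WT). The labels name no other allele or treatment; the sources used here do not give the kind of knockout allele or whether a library held 1 embryo or several. Each p-value therefore measures the spread between these libraries, which may be technical in part.

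Both genes encode homeodomain transcription factors that are made in progenitors of the pallium, the dorsal telencephalon from which cortex and hippocampus form. Emx2 forms a gradient that is highest caudally and medially, next to the cortical hem, a source of Wnt and Bmp signals, and mice without Emx2 have a reduced hippocampus and a smaller caudomedial cortex. Emx1 is also found in the glutamatergic neurons that pallial progenitors give rise to, and its loss alone has milder effects in mice. Dmrt3 and Dmrt5 are DM-domain transcription factors of the same medial progenitors. The current symbol of Dmrt5 is Dmrta2, used below for its transcript. The design asks how far each of these factors, and both together, are needed for the transcript levels of the pallium.

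Emx1 (ENSMUSG00000033726) lies on the plus strand of chromosome 6 from 85187438 to 85204462 in GRCm38, and Emx2 (ENSMUSG00000043969) on the plus strand of chromosome 19 from 59458372 to 59465357, per GENCODE M21. Each has 3 exons in its main transcript. The sequences of exon 2, which is coding in both, are printed because counts of close relatives are only separable where their bases differ. Capitals mark the 54 positions at which the exons differ when laid side by side without gaps, 5′ to 3′ on the plus strand (Emx1 chr6:85194038-85194222, Emx2 chr19:59461662-59461846).
Emx1 exon 2: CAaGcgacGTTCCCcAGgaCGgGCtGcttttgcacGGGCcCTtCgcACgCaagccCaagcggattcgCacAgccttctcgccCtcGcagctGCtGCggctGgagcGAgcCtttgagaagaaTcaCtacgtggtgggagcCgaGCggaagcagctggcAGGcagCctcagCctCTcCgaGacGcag
Emx2 exon 2: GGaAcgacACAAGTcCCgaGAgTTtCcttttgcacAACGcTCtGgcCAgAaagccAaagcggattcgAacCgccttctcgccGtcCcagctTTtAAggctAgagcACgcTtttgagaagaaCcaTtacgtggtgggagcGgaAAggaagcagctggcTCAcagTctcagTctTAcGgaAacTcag
The 2 exons are each 185 bases long and identical at 131 positions (70.8%). The longest run of identical bases was 14, in these exons and over the whole main transcripts.

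Total counts per library ran from 19602718 to 33072896, and no library was a repeat of another of its own genotype within sampling noise. The targeted transcripts fitted the labels. Dmrt3 averaged 0.157 ± 0.18 CPM (scaled read counts over library size) in double KO (SD, n = 5), 41.5 ± 7.96 in Dmrt5 KO (n = 4), 0.307 ± 0.0653 in Dmrt3 KO (n = 5) and 56.9 ± 4.1 in WT (n = 4). Dmrta2 averaged 3.54 ± 1.34 CPM in double KO, 10.7 ± 9.63 in Dmrt5 KO, 219 ± 53.7 in Dmrt3 KO and 193 ± 29.6 in WT. Dmrt5 KO replicate 1 stood apart with 25.1 CPM of Dmrta2 from 507 counts, against 4.31 to 6.93 CPM in the other 3 Dmrt5 KO libraries. Pallial markers of the labelled tissue were present in WT, with Lhx2 at 754 ± 50.1 CPM and Neurog2 at 238 ± 51.3 CPM.

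Emx1 was nearly lost from the double KO. It stood at 12.4, 7.99, 9.83, 7.75 and 4.6 CPM in the 5 double KO libraries, on 118 to 253 counts each. The 4 Dmrt5 KO libraries gave 106, 65.2, 59.2 and 64.3 CPM. The 5 Dmrt3 KO libraries gave 236, 164, 149, 143 and 151 CPM, and the 4 WT libraries 140, 180, 178 and 113 CPM. Every double KO library lay below every other library, the Dmrt5 KO libraries lay below all Dmrt3 KO and WT libraries, and the Dmrt3 KO and WT ranges overlapped. The means were 8.5 ± 2.86 CPM in double KO, 73.6 ± 21.6 in Dmrt5 KO, 169 ± 38.5 in Dmrt3 KO and 153 ± 32.4 in WT.

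Emx2 was lowest in the same mutants but was far from lost. It stood at 51.2, 76.1, 71, 86.6 and 49.7 CPM in the double KO libraries, on 1047 to 2035 counts each, and at 133, 112, 120 and 109 CPM in Dmrt5 KO. Dmrt3 KO libraries gave 173, 139, 191, 196 and 200 CPM and WT libraries 188, 249, 224 and 161 CPM. As for Emx1, each double KO library lay below all others, each Dmrt5 KO library lay below every Dmrt3 KO and WT library, and Dmrt3 KO and WT overlapped. The means were 66.9 ± 16.1 CPM in double KO, 118 ± 10.5 in Dmrt5 KO, 180 ± 25 in Dmrt3 KO and 206 ± 38.8 in WT. In bulk tissue, fewer cells that make a transcript and less of it per cell cannot be told apart.

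**Figure D1:**
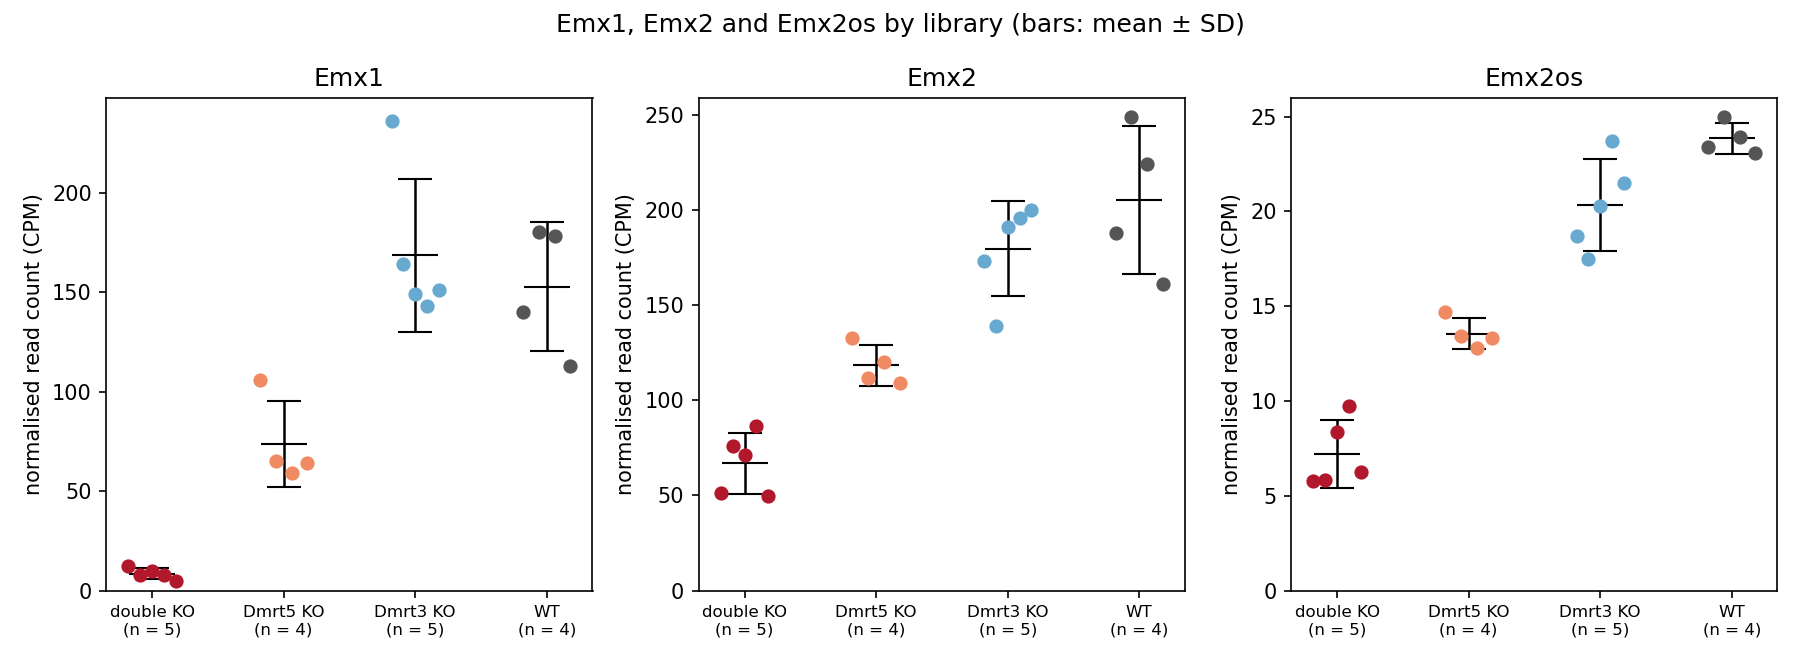
Normalised read counts (CPM, linear axes from 0) of Emx1, Emx2 and the antisense gene Emx2os, 1 point per library, with the mean and SD of each genotype. Emx1 lies between 4.6 and 12.4 CPM in double KO and between 113 and 180 CPM in WT, and Emx2 between 49.7 and 86.6 CPM in double KO and between 161 and 249 CPM in WT.

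Against WT, Emx1 fell 18-fold in the double KO (log2 -4.17 ± 0.27 SE, 95% interval -4.73 to -3.61, adjusted p = 3.16e-08 by edgeR's quasi-likelihood test), to 5.56% of the WT level. Emx2 fell 3.07-fold (log2 -1.62 ± 0.17, interval -1.98 to -1.26, adjusted p = 1.19e-05), to 32.5% of WT. Of all tested genes, 3.81% were called lower in this comparison at an adjusted p under 0.05, and 3.4% had every double KO library below every WT library. Ranked by p, Emx1 was 5th and Emx2 35th of the 16236 tested genes, and 0.142% of genes had a more negative log2 fold change than Emx1 and 2.4% than Emx2. The median log2 fold change of all genes was 0.01.

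The double KO also lay below each single KO. Against Dmrt3 KO, Emx1 fell 19.9-fold (log2 -4.31 ± 0.26, adjusted p = 2.80e-08) and Emx2 2.68-fold (log2 -1.42 ± 0.16, adjusted p = 3.54e-05), where 1.96% of all genes were called lower and 2.51% did not overlap in that direction. Against Dmrt5 KO, Emx1 fell 8.66-fold (log2 -3.11 ± 0.26, adjusted p = 3.52e-06) and was 3rd of all genes by p. Emx2 fell 1.77-fold there (log2 -0.82 ± 0.17, adjusted p = 0.0434), with 0.32% of all genes called lower and 1.37% without overlap in that direction. The Emx2 call was narrow: with each library left out in turn its adjusted p ran from 0.0139 to 0.15 and passed in 1 of 9 fits, that without double KO replicate 4. That library also had the highest summed level of 8 mesenchymal markers among the double KO libraries, 2050 CPM against 35.7 to 337 CPM in the other 4. With the mesenchyme score as a covariate the Emx2 difference was log2 -0.69 and did not pass (adjusted p = 0.199).

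In the Dmrt5 KO against WT, both genes were lower in every library, with different standing in the test. Emx2 fell 1.74-fold (log2 -0.80 ± 0.18, interval -1.17 to -0.42, adjusted p = 0.0404), to 57.6% of WT. Emx1 averaged 48.2% of WT in the fit (log2 -1.05 ± 0.26, interval -1.60 to -0.51, adjusted p = 0.0603) and was not called. Of all genes, 0.69% were called lower here, and 4.34% had all Dmrt5 KO libraries below all WT libraries. Emx1 passed without Dmrt5 KO replicate 1 (log2 -1.29, adjusted p = 0.0419), the Dmrt5 KO library with the most Dmrta2. Whether its Dmrta2 level bears on the call was not tested. The Emx2 call held in 1 of 8 fits that left out a library, the one without WT replicate 4, at adjusted p values from 0.0344 to 0.154.

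In the Dmrt3 KO against WT, neither gene passed, in edgeR or in DESeq2. The log2 fold changes were 0.14 ± 0.24 for Emx1 (interval -0.37 to 0.65, adjusted p = 0.791) and -0.20 ± 0.17 for Emx2 (interval -0.55 to 0.16, adjusted p = 0.671). Only 2 genes were called in this comparison, 0.0123% of those tested, beside 1164 at an unadjusted p under 0.05. The Emx1 value rests on Dmrt3 KO replicate 1, the library with 236 CPM, without which it was -0.01. Set against each other, Dmrt5 KO was lower than Dmrt3 KO by log2 -1.20 ± 0.25 for Emx1 (adjusted p = 0.061) and -0.60 ± 0.17 for Emx2 (adjusted p = 0.254). Neither passed, where 0.166% of all genes were called lower, although no libraries overlapped, as in 1.92% of all genes. Without Dmrt5 KO replicate 1 the Emx1 difference passed at log2 -1.42 (adjusted p = 0.0407).

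**Figure D2:**
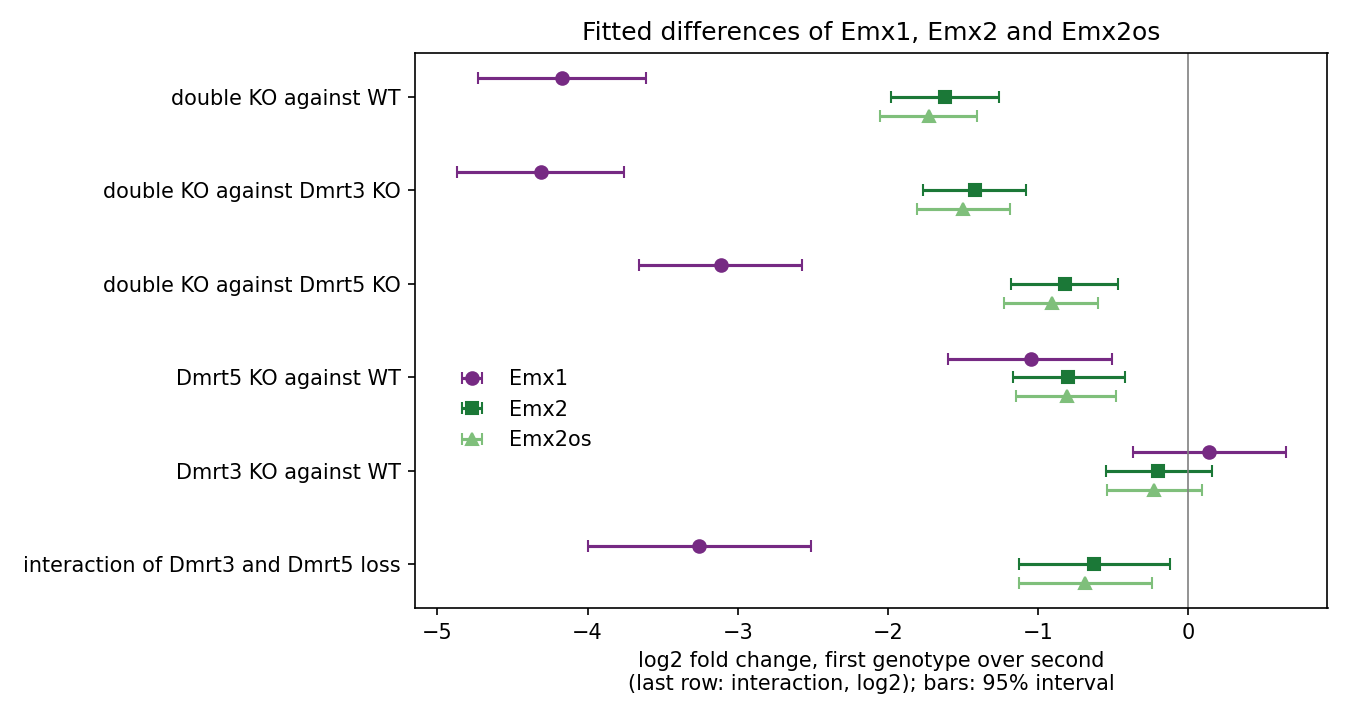
Fitted log2 fold changes of Emx1, Emx2 and Emx2os, first genotype over second, and the interaction of both losses, with 95% intervals. The comparison of Dmrt5 KO against Dmrt3 KO is not drawn. The Emx1 points of the double KO comparisons lie between -4.31 and -3.11, below those of Emx2, which lie between -1.62 and -0.82.

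The loss of both factors together was larger for Emx1 than the single losses add up to. The sum of both single KO effects on the log2 scale was -0.91 for Emx1, against a double KO effect of -4.17. The interaction, the double KO effect less the sum of the single ones, was -3.26 ± 0.35 (interval -4.00 to -2.51, adjusted p = 0.000328). It was the second lowest p of all genes, in a comparison where 0.142% of genes were called lower. For Emx2 the sum was -0.99 against a double KO effect of -1.62, and the interaction of -0.63 ± 0.24 (interval -1.13 to -0.12, adjusted p = 0.529) was not called. The Emx1 interaction passed in all 18 fits that left out a library, between -3.43 and -3.02.

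That Emx1 changed more than Emx2 was tested directly with their ratio inside each library, which does not depend on how libraries are scaled. On the log2 scale of counts, the Emx1 to Emx2 ratio was -3.01 ± 0.59 in double KO (SD, n = 5), -0.72 ± 0.29 in Dmrt5 KO (n = 4), -0.10 ± 0.42 in Dmrt3 KO (n = 5) and -0.44 ± 0.08 in WT (n = 4). The double KO ratio was 5.96-fold lower than in WT, 7.5-fold lower than in Dmrt3 KO and 4.89-fold lower than in Dmrt5 KO, with no overlap in any of the 3. Each gave p = 0.00794 in a two-sided exact permutation test, the smallest these numbers of libraries allow, and 0.0132 after adjustment over the 5 comparisons of this ratio. The ratio differed by log2 -0.29 between Dmrt5 KO and WT (exact permutation p = 0.143, adjusted p = 0.179) and by 0.33 between Dmrt3 KO and WT (exact permutation p = 0.238, adjusted p = 0.238). Neither passed.

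**Figure D3:**
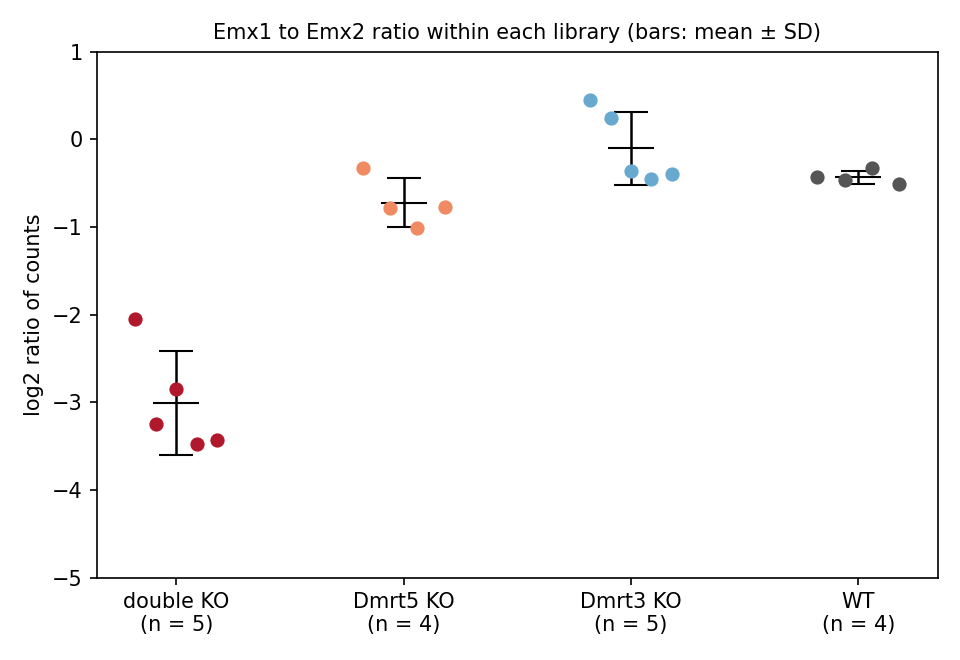
Log2 ratio of Emx1 to Emx2 counts within each library, 1 point per library, with the mean and SD of each genotype. The ratio averages -3.01 in double KO and -0.44 in WT. The Dmrt3 KO libraries overlap WT, and the Dmrt5 KO libraries do so only through replicate 1.

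Per kilobase of exon (RPKM, computed here over 2184 exonic bases for Emx1 and 3002 for Emx2), Emx1 and Emx2 stood at 3.89 and 22.3 in double KO, 33.7 and 39.4 in Dmrt5 KO, 77.2 and 59.8 in Dmrt3 KO, and 69.9 and 68.5 in WT. Emx1 was the higher of the pair in 0 of 5 double KO libraries, 1 of 4 Dmrt5 KO, 5 of 5 Dmrt3 KO and 2 of 4 WT libraries. With the lengths of the main transcripts alone (1561 and 2916 bases), the RPKM of Emx1 and Emx2 were 5.45 and 23 in double KO, 47.1 and 40.6 in Dmrt5 KO, 108 and 61.6 in Dmrt3 KO, and 97.8 and 70.5 in WT. The order of the 2 means thus turned with the length used in Dmrt5 KO, and did not in double KO, Dmrt3 KO or WT. The library counts above used the exonic lengths, by which the WT means lay close (69.9 and 68.5). Among tested genes of known length, 55.3% had a higher RPKM than Emx1 in double KO, against 4.01% in WT. For Emx2 these shares were 17.9% in double KO and 4.11% in WT.

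Emx2os, a non-coding RNA gene (ENSMUSG00000087095, chromosome 19, minus strand, 59425104 to 59458635) that starts inside Emx2 and runs away from it, followed Emx2. It stood at 5.77, 5.84, 8.36, 9.75 and 6.24 CPM in double KO, 14.7, 13.4, 12.8 and 13.3 in Dmrt5 KO, 18.7, 17.5, 20.3, 23.7 and 21.5 in Dmrt3 KO, and 23.4, 25, 23.9 and 23.1 in WT. The genotypes overlapped only between Dmrt3 KO and WT. Emx2os fell 3.31-fold in double KO against WT (log2 -1.73 ± 0.15, adjusted p = 1.64e-06) and 1.76-fold in Dmrt5 KO against WT (log2 -0.81 ± 0.16, adjusted p = 0.0166). Its deviation from the genotype mean had the sign of the Emx2 deviation in 16 of 18 libraries, against 10 of 18 for Emx1 and Emx2. The library kit does not mark strand and both genes share 264 exonic bases, so their reads cannot be separated there. The antisense gene of Emx1 is not analysed here.

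Genes around both loci were read as context, in a window of 500 kb on each side chosen after the annotation had been seen. In double KO against WT, 3.81% of all tested genes were called lower and 2.42% higher. Near Emx1, 11 of 29 annotated genes were tested, and 1 was called against WT in the double KO: Sfxn5, a mitochondrial sideroflexin gene and the nearest gene on the 3′ side, at 21 ± 1.51 CPM in double KO and 40.6 ± 6.98 in WT (log2 -0.95 ± 0.12, adjusted p = 0.000127). The nearest on the 5′ side, the pseudogene Spr-ps1, was not called (log2 -1.25 ± 0.39, adjusted p = 0.068). Near Emx2, 5 of 18 were tested apart from Emx2os, and 2 rose in double KO. These were the vesicular monoamine transporter Slc18a2 (63.3 ± 21.2 CPM in double KO and 31 ± 5.53 in WT, adjusted p = 0.00772) and the ventral homeobox gene Vax1 (33.6 ± 12 CPM in double KO and 18.1 ± 3.8 in WT, adjusted p = 0.0498). In Dmrt5 KO against WT the lowest adjusted p was 0.0896 among the 11 genes near Emx1 and 0.362 among the 5 near Emx2.

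Pallial transcription factors that act beside the Emx genes moved in both directions. In double KO against WT, 7 of 15 listed factors fell and 2 rose (2.42% of all genes were called higher), with a median log2 of -0.83. Lhx2, a selector of cortical identity, fell to 256 ± 39.1 CPM in double KO, against 754 ± 50.1 in WT (log2 -1.56 ± 0.11, adjusted p = 2.03e-07). Fezf2, a regulator of deep-layer neurons, fell to 28 ± 3.8 CPM in double KO, against 113 ± 10.8 in WT (log2 -2.01 ± 0.13). The proneural gene Neurog2 fell to 58.9 ± 9.85 CPM in double KO, against 238 ± 51.3 in WT (log2 -2.01 ± 0.16), and Otx1 to 61.8 ± 13.9 CPM in double KO, against 132 ± 6.87 in WT (log2 -1.09 ± 0.15). The 2 that rose were Pax6, which counters Emx2 along the cortical axis in mice (319 ± 78.7 CPM in double KO and 176 ± 20.8 in WT, adjusted p = 0.00208), and Sp8, a rostral factor (87.9 ± 23.2 CPM in double KO and 51.6 ± 8.96 in WT, adjusted p = 0.0335). The count of 2 was 1 when only the genotypes compared were fitted, with the replicate block, with the mesenchyme score as a covariate, and without any one of WT replicates 1, 3 and 4 and double KO replicates 1 and 5.

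In Dmrt5 KO against WT, 3 of the 15 fell and none rose in edgeR, where 0.339% of all genes were called higher (2 higher at an unadjusted p under 0.05, 1 higher in DESeq2). They were Lhx2 at 354 ± 24.9 CPM (log2 -1.09 ± 0.12), Fezf2 at 59.8 ± 8.28 CPM (log2 -0.92 ± 0.13) and Nfib at 129 ± 18.9 CPM in Dmrt5 KO against 297 ± 94.6 in WT (log2 -1.20 ± 0.26). Neurog2, like Emx1, had a called interaction (log2 -2.05 ± 0.23, adjusted p = 0.000328), as did Neurog1 (log2 -1.77 ± 0.32, adjusted p = 0.0265). Lhx2, like Emx2, did not (log2 -0.14 ± 0.16, adjusted p = 0.716). The count of 2 called interactions was 4 in DESeq2, and 1 without any one of WT replicates 1, 3 and 4, Dmrt3 KO replicates 1, 3 and 4, Dmrt5 KO replicates 1, 4 and 5, and double KO replicate 2.

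Signals of the cortical hem were low in the double KO. Of 16 tested hem Wnt and Bmp genes, 11 fell and none rose in edgeR and in DESeq2 against WT, with a median log2 of -2.17. Double KO replicate 4, the library with 2050 CPM of mesenchymal markers, stood apart, with a mean log2 CPM over the hem genes of 3.19 against 1.05 to 1.36 in the other 4 double KO libraries. The count was 14 without that library and 8 with the mesenchyme score as a covariate. Wnt3a, the hem Wnt needed for hippocampal growth, averaged 0.181 ± 0.305 CPM in double KO, 3.67 ± 1.5 in Dmrt5 KO, 8.05 ± 0.963 in Dmrt3 KO and 13.7 ± 2.05 in WT. Lmx1a, a roof plate and hem factor, averaged 2.36 ± 1.04 CPM in double KO, 5.08 ± 0.278 in Dmrt5 KO and 18.9 ± 1.26 in WT. The Wnt enhancers Rspo2 and Rspo3 stood at 4.92 ± 1.9 and 6.09 ± 1.82 CPM in double KO, and at 37.6 ± 7.37 and 48.5 ± 8.87 CPM in WT. In Dmrt5 KO against WT, 2 of 16 fell, Lmx1a (adjusted p = 0.001) and Wnt2b (adjusted p = 0.03), with a median log2 of -1.10. The double KO count was 7 in a fit of only the genotypes compared, and the Dmrt5 KO count was 6 with sex as a covariate and 1 without any one of WT replicates 1 and 4 and Dmrt5 KO replicates 1, 2, 4 and 5.

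Among 11 genes that respond to Wnt signals, 6 fell in double KO against WT, with a median log2 of -0.70, and 1 fell in Dmrt5 KO. The shares of all tested genes called lower against WT were 3.81% in double KO and 0.69% in Dmrt5 KO. Sp5 was at 1.37 ± 0.907 CPM in double KO, 5.6 ± 1.82 in Dmrt5 KO and 19.6 ± 4.38 in WT (log2 -3.83 ± 0.39 and -1.80 ± 0.38, adjusted p = 7.16e-06 and 0.0265). Axin2 was at 36.2 ± 16.2 CPM in double KO and 81.2 ± 23.6 in WT, and Lef1 at 23.8 ± 12.4 CPM in double KO and 55.9 ± 7.58 in WT. The double KO count was 1 when only the genotypes compared were fitted or with the mesenchyme score as a covariate, and the Dmrt5 KO count was 0 without any one of WT replicates 3 and 4 and Dmrt5 KO replicates 1, 2, 4 and 5.

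Rostral Fgf genes and genes that respond to Fgf signals were listed together, and most were not called. The share of all tested genes called higher in double KO against WT was 2.42%. Of 12, 1 rose in double KO against WT, Fgf15 (106 ± 27.1 CPM in double KO and 47.5 ± 21 in WT, log2 1.16 ± 0.26, adjusted p = 0.0109), and the median log2 was 0.33. The count was 0 when only the genotypes compared were fitted and 3 with the mesenchyme score as a covariate. Fgf8 signalling opposes Emx2 in the patterning of cortical areas. Its transcript was at 8.67 ± 5.63 CPM in double KO and 8.56 ± 8.02 in WT, a difference smaller than the spread of either. Of 5 genes that mouse studies have tied to Emx2 (Fgf8, Gsx2, Sox2, Tenm1 and Wnt1), 1 rose in double KO. It was the subpallial factor Gsx2 (83.2 ± 16 CPM in double KO and 31.7 ± 11.9 in WT, adjusted p = 0.000716). Gsx2 is also in the list of 16 subpallial genes, of which 15 rose in double KO against WT. Sox2, a factor of neural progenitors, was at 464 ± 47.8 CPM in double KO and 380 ± 42.9 in WT (adjusted p = 0.153). Wnt1 was low throughout, at 0.628 ± 0.358 CPM in double KO and 0.276 ± 0.226 in WT.

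**Figure D4:**
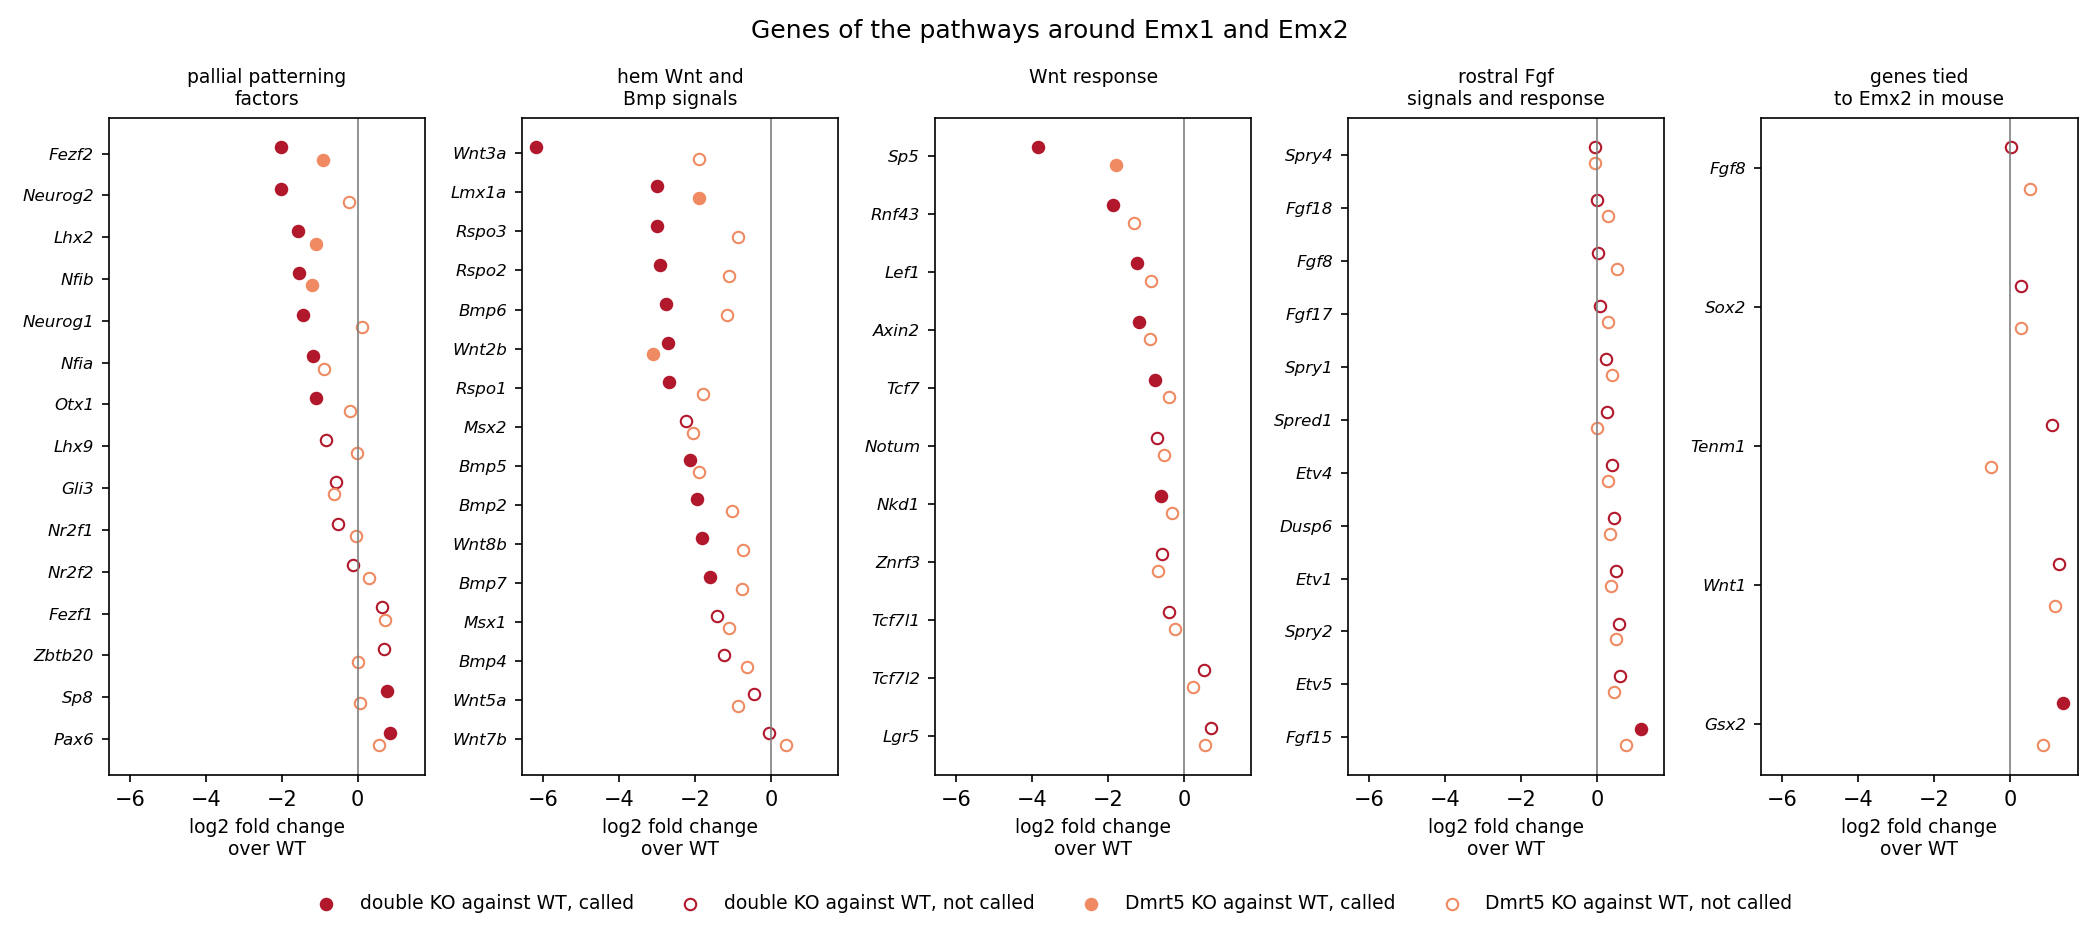
Log2 fold changes over WT of the genes in 5 lists, with the double KO above the Dmrt5 KO for each gene and filled points for genes called at an adjusted p under 0.05. In double KO, 11 of 16 hem genes and 7 of 15 pallial factors are called lower, against 2 and 3 in Dmrt5 KO.

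Many markers of glutamatergic and subpallial cells were called in the double KO. Of 12 glutamatergic lineage genes, 7 fell in double KO against WT (median log2 -1.49) and 6 had a called negative interaction, as Emx1 did. In Dmrt5 KO against WT, Emx2 was called lower in edgeR and Emx1 was not. None of the 12 genes was called lower there in edgeR or DESeq2. However, 10 of the 12 had a log2 value below 0 (2 lower at an unadjusted p under 0.05, median log2 -0.35). The proneural gene Neurod4 rose there, at 13.2 ± 1.08 CPM in Dmrt5 KO and 5.35 ± 1.03 in WT (adjusted p = 0.0226), a call lost without any one of WT replicates 1, 3 and 4 and each Dmrt5 KO library. Eomes, of intermediate progenitors, was at 48.7 ± 7.83 CPM in double KO, 164 ± 19.6 in Dmrt5 KO, 217 ± 37 in Dmrt3 KO and 200 ± 47.3 in WT. Nhlh1, of newborn neurons, was at 12.8 ± 2.46 CPM in double KO, 50.6 ± 5.48 in Dmrt5 KO, 73.7 ± 7.53 in Dmrt3 KO and 70 ± 11.8 in WT. Of 16 subpallial genes, which are not transcribed in most pallial cells, 15 rose in double KO against WT (median log2 1.65) and 6 in Dmrt5 KO (median log2 1.06). Dlx2, a regulator of GABAergic neurons, was at 513 ± 95.6 CPM in double KO, 356 ± 37.5 in Dmrt5 KO, 187 ± 41.3 in Dmrt3 KO and 168 ± 31.2 in WT.

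The summed subpallial level was 2050 to 3970 CPM in double KO, 1910 to 2450 in Dmrt5 KO, 1010 to 1760 in Dmrt3 KO and 957 to 1350 in WT, and none of the 16 markers was at 0 throughout. Its part in the Emx differences was not tested. The Dmrt5 KO count of 6 was 14 in DESeq2, and 2 or 3 without any one of WT replicates 1 and 4 and Dmrt5 KO replicates 1, 2 and 5.

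Markers of other cell types were counted in double KO against WT, where 3.81% of all genes were called lower and 2.42% higher. Of 9 Cajal-Retzius genes, 2 fell and 1 rose, among them the p53 relative Trp73, at 10.6 ± 2.25 CPM in double KO and 40.8 ± 11.4 in WT. Of 10 general progenitor genes, 1 rose, Sox1. Of 10 diencephalic and eye genes, 2 fell and 2 rose, among them Dct, a pigment cell enzyme, at 0.398 ± 0.206 CPM in double KO and 13.9 ± 2.54 in WT. No gene was called in edgeR or DESeq2 among 8 of mesenchyme (1 at an unadjusted p under 0.05), 6 of endothelium (3), 6 of microglia (0) and 7 of erythroid cells (1). The fitted log2 values were nonetheless below 0 for 8 of 8 mesenchymal genes (median -1.17), 7 of 7 erythroid genes (median -1.03) and 6 of 6 endothelial genes (median -0.46), and for 2 of 6 microglial genes (median 0.21). Mesenchymal genes summed to 35.7 to 2050 CPM in double KO, 402 to 1640 in Dmrt5 KO, 547 to 2670 in Dmrt3 KO and 734 to 2380 in WT, none at 0 throughout, and with their score as a covariate the double KO against WT values were -4.04 for Emx1 and -1.42 for Emx2, both called. Dmrta1, the remaining relative listed with the targeted genes, was at 52.1 ± 14.2 CPM in double KO and 44.7 ± 9.22 in WT (adjusted p = 0.659). In Dmrt3 KO against WT the only gene of the lists called in edgeR was Dmrt3 itself.

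The genes most like each Emx gene across the 18 libraries were ranked by the root-mean-square difference of their mean-centred log2 CPM, among 12210 genes of sufficient level. The nearest to Emx1 were Sv2b (0.59), a synaptic vesicle protein gene, Slc17a7 (0.60), a vesicular glutamate transporter, Sp5 (0.64), the folate receptor gene Folr1 (0.68) and Ccno (0.69), which acts in multiciliated cells. The median gene lay at 1.87. The genes nearest to Emx1 rested on few counts in double KO libraries, 4 to 14 for Sv2b and 43 to 63 for Slc17a7. Sp5 had 16 to 63 counts there, Folr1 3 to 17 and Ccno 5 to 45. The nearest to Emx2 were Lhx2 (0.23), Fezf2 (0.25), Tor3a (0.25), a torsin family gene, Chst2 (0.27), a sulfotransferase, and Gas1 (0.29), a Hedgehog co-receptor, with the median gene at 0.76. The pair itself differed by 1.24, which placed Emx2 59th from Emx1 and Emx1 11966th from Emx2. The values were not scaled, so these ranks take in the size of the changes as well as their order across genotypes. Slc17a7 was at 2.45 ± 0.281 CPM in double KO, 15.8 ± 2.88 in Dmrt5 KO, 28.2 ± 5.66 in Dmrt3 KO and 26.8 ± 10 in WT. Gas1 was at 90.3 ± 39.8 CPM in double KO, 182 ± 30 in Dmrt5 KO, 276 ± 59.9 in Dmrt3 KO and 337 ± 36.5 in WT.

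**Figure D5:**
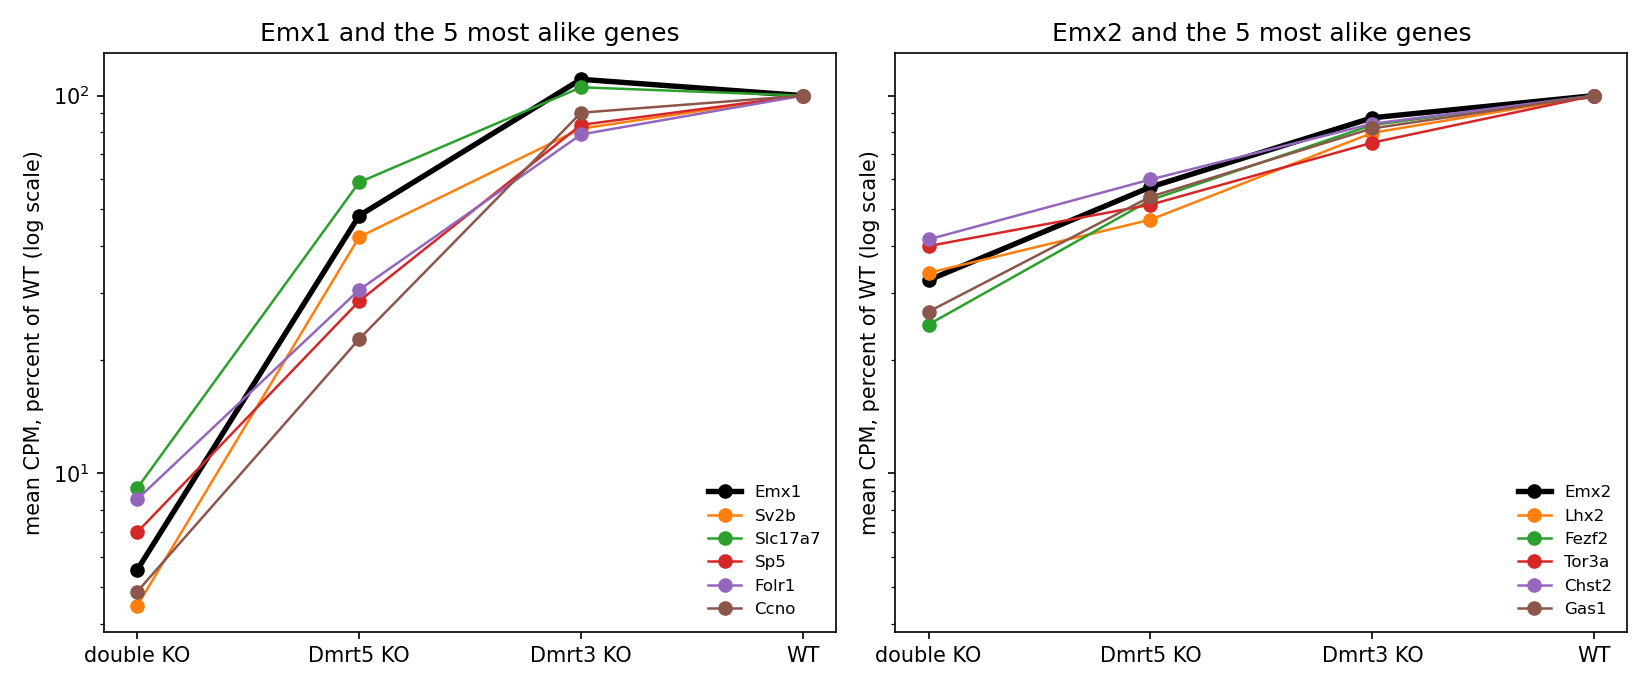
Mean CPM as a percent of the WT mean (log axis) for Emx1 and for Emx2 (thick lines) with the 5 genes of smallest difference to each. Emx1 stands at 5.56% of WT in double KO and 48.2% in Dmrt5 KO in the fit, and Emx2 at 32.5% and 57.6%.

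The genotypes held unequal numbers of females and males, as read from Xist and Y-linked genes. Both WT females (178 and 180 CPM of Emx1, 224 and 249 of Emx2) were above both WT males (113 and 140 CPM of Emx1, 161 and 188 of Emx2). In double KO the females gave 4.6 to 12.4 CPM of Emx1 and 49.7 to 71 of Emx2, and the males 7.75 to 7.99 of Emx1 and 76.1 to 86.6 of Emx2. In Dmrt3 KO the females gave 164 to 236 CPM of Emx1 and 139 to 173 of Emx2, and the males 143 to 151 of Emx1 and 191 to 200 of Emx2. Females were thus above males for Emx1 in Dmrt3 KO as in WT, while for Emx2 they were below males in double KO and Dmrt3 KO. Females and males numbered 3 and 2 in double KO, 1 and 3 in Dmrt5 KO, 2 and 3 in Dmrt3 KO, and 2 and 2 in WT. With sex as a covariate, the Emx2 difference between double KO and Dmrt5 KO did not pass (log2 -0.78, adjusted p = 0.0743).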

How the data were processed

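RNA was measured in 18 libraries of dissected mouse cortex with a TruSeq RNA kit, per the labels' protocols; this kit does not mark strand. The deposited files hold raw read counts per Ensembl gene, not normalised by the authors. The submitters' processing notes name CASAVA 1.8.2, STAR 2.3.0e, featureCounts 1.4.6-p1, DESeq2 1.8.2 and mm10; the sources used here give neither annotation release nor strand setting. Identifiers of 36602 of 38355 genes matched GENCODE M21 (GRCm38, the assembly of mm10); the others held 0.397% of counts.

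Counts were fitted with edgeR 4.0.16 in R 4.3.3: filterByExpr, trimmed-mean scaling, 1 mean per genotype, quasi-likelihood tests and Benjamini-Hochberg adjustment over all 16236 tested genes. Genes called at an adjusted p under 0.05 are said to rise or fall. CPM and RPKM were computed here from the deposited counts. The ratio of Emx1 to Emx2 was made with a pseudocount of 0.5 counts and tested by exact permutation of libraries. Likeness used log2 CPM with a prior count of 2, among genes whose mean was at least 1 on that scale. The fit was tested on simulated data. The values of 2 genes of the lists are not reported here, and their lists are counted without them. Replicate numbers were checked and not taken as pairs, but the check does not settle whether they mark libraries that belong together.

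Members, the 17 gene lists and tests were chosen with earlier results of these data known. Named were the members, their antisense partner and neighbours, the targeted genes, up to 4 genes per list with the lowest adjusted p in double KO against WT, and the 5 most alike genes; Pax6, Sp8, Nfib, Neurog1, Neurod4, Wnt2b, Fgf8, Slc18a2, Vax1 and Dmrta1 were named after their values were seen. Alternatives were DESeq2 1.42.0, its size factors, no filter, the compared genotypes alone, a replicate block, sex or a mesenchyme score as covariate, a pseudocount of 2 and leaving out each library.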

Additional observations from a re-analysis of the deposited data

Results flagged for a closer look

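Emx1 stood at 236 CPM in Dmrt3 KO replicate 1, apart from the 143 to 164 CPM of the other 4 Dmrt3 KO libraries. Emx1 stood at 106 CPM in Dmrt5 KO replicate 1, apart from the 59.2 to 65.2 CPM of the other 3 Dmrt5 KO libraries. The same library held 25.1 CPM of Dmrta2; the part of this in its Emx1 level was not tested. These are samples far from the rest of their group, found among 16 groups of values looked at; chance gives about 1 in 20 such groups.

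The effect of Dmrt5 loss on Emx1 differed with and without Dmrt3, by an interaction of -3.26 on the log2 scale (adjusted p = 0.000328 in edgeR). Without both of the outlying libraries, a choice made after seeing the data, it was -2.89 (adjusted p = 0.00191).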

How the results depend on the processing

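The falls of Emx1 in double KO against each other genotype, its interaction, and the falls of Emx2 in double KO against WT and Dmrt3 KO passed under every alternative run and without each library. Ratio calls kept their side under a pseudocount of 2. Emx2 in double KO against Dmrt5 KO did not pass with no filter (log2 -0.79, adjusted p = 0.0713), only the genotypes compared (-0.81, 0.302), a replicate block (-0.87, 0.0824), sex (-0.78, 0.0743) or the mesenchyme score (-0.69, 0.199), and ran from -0.93 to -0.73 without single libraries. Emx2 in Dmrt5 KO against WT did not pass with only the genotypes compared (-0.78, 0.0638) or the block (-0.74, 0.0694), and ran from -0.91 to -0.69 without single libraries. Emx1 in Dmrt5 KO against WT passed with the block (-0.97, 0.0259) and DESeq2 (-1.04, 0.0082), and ran from -1.29 to -0.96. Emx1 in Dmrt5 KO against Dmrt3 KO passed with only the genotypes compared (-1.20, 0.0264), the block (-1.18, 0.0136) and DESeq2 (-1.19, 0.00128), and ran from -1.42 to -1.05. Without Dmrt3 KO replicate 1, Emx1 in Dmrt3 KO against WT reversed to -0.01 (range -0.01 to 0.23). The cause was not tested in any of these. Same-numbered libraries deviated with correlations from -0.36 to 0.70, and the numbers were not taken as pairs. In double KO against Dmrt5 KO these correlations ran from 0.06 to 0.70, with a median of -0.22 for other pairs. In each other comparison the lowest was negative. Whether the numbers mark libraries that belong together is thus not settled. Other calls of Emx1 and Emx2 kept their side under the block. With a library left out, the ratio of Dmrt5 KO against WT was taken as a value with no test. Over all genes, calls in double KO against WT ran from 126 to 734 higher and from 262 to 1272 lower, and in Dmrt5 KO against WT from 14 to 210 higher and from 40 to 228 lower. Emx1 rests on 118 to 253 counts per double KO library.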
